A study of Mus musculus with 8 samples.

Results

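The genes described here are the Toll-like receptors Tlr1, Tlr2, Tlr3, Tlr4, Tlr7, Tlr8, Tlr9 and Tlr13 and the LPS coreceptors Cd14 and Ly96, measured in tumor-associated macrophages (TAMs). They were taken by gene symbol from the expression tables of 8 libraries, and 10 of 10 were found among 21051 genes listed. All 10 passed the filter on low counts and were tested together with 12412 genes in all. Each library came from the CD45+F4/80+ cells of a mouse carrying a s.c. B16 melanoma, a pigmented tumor line of C57BL/6 origin, and was collected on day 14. The 4 TAM-WT libraries came from WT littermates and the 4 TAM-KO libraries from *Colec11-/-* mice, which lack collectin-11, a soluble pattern recognition lectin. Both groups were on the C57BL/6 background, and young adult males were the default in the study's methods. The knockout is present in every cell of the animal from birth, so the comparison does not separate collectin-11 made by macrophages from that made by other cells. CD45+F4/80+ is a gate on a pan-leukocyte and a macrophage antigen, and its cells can include monocytes and other leukocytes that carry F4/80. The gate should remove melanoma cells, which lack CD45, and T and NK cells, which lack F4/80, and the study's methods report a high purity by flow cytometry.

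Toll-like receptors are membrane proteins that bind microbial molecules and nucleic acids and signal through adaptors to NF-κB, MAP kinases and interferon regulatory factors. Some act at the cell surface on lipids and lipoproteins, and others act in endosomes on RNA or DNA. In macrophages, CD14 passes LPS to MD-2, the product of Ly96, which holds it in the ectodomain of Tlr4.

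The targeted gene was nearly silent in both groups. Values of a group are given below in the order of its replicate numbers, from 1 to 4 unless stated. Counts of Colec11 were 1, 4, 0 and 1 for TAM-WT and 1 in each TAM-KO library, so these cells cannot check the genotype. Depth was even, with between 16225362 and 17280267 reads assigned to genes in 7 of the libraries, and the table of TAM-KO replicate 1 lacks an unbroken run of 5311 genes. Of the 10 genes, 5 were in that table, Cd14 and Tlr3 had their value for this library in the table of the whole series, and Tlr7, Tlr8 and Ly96 had 3 TAM-KO libraries. Values taken from the table of the whole series enter the levels given below, and the tests of Cd14 and Tlr3 used 3 TAM-KO libraries. On the first principal component, with 56.39% of the variance, the TAM-WT libraries lay from -33.15 to -6.753 and the TAM-KO libraries from 10.53 to 30.65. TAM-WT replicate 1 lay nearest to the TAM-KO libraries.

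Macrophage markers were abundant in the sorted cells. The 11 macrophage genes, led by C1qa, summed to between 7251 and 9066 FPKM (fragments normalized for gene length and library size) in the 7 libraries that hold them all, and 0 of 11 passed the test. Melanoma genes were abundant too. Their 6 genes, led by Pmel, summed to 2582, 4309, 1965 and 1912 FPKM in TAM-WT and to 4397, 4977, 4656 and 3733 FPKM in TAM-KO, and 1 of 6 rose. With 1 library left out, between 0 and 6 of the 6 were called, all 6 without TAM-WT replicate 2. These transcripts of pigment cells were present in every library, at a sum that differed between libraries.

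Most T cell genes separated 3 TAM-WT libraries from the others. The 5 T cell genes with a value in all 8 libraries, led by Cd3g, summed to 11.97, 0.69, 0.73 and 0.86 FPKM in TAM-WT and to 21.2, 37.6, 31.2 and 13.1 FPKM in TAM-KO. Cd4, which is not in that sum for want of a value in TAM-KO replicate 1, had the other sign, with a log2 fold change of -0.29 that did not pass. The NK cell genes, led by Prf1, summed over 5 genes to 3.20, 0, 0.14 and 0.22 FPKM in the TAM-WT libraries and to 4.69, 8.23, 7.59 and 2.37 FPKM in the TAM-KO libraries. In TAM-WT replicate 1 and the TAM-KO libraries, most of that sum was Prf1, which T cells express too. Prf1 was at 2.49 FPKM in TAM-WT replicate 1 and 7.31 FPKM in TAM-KO replicate 2, and at most 0.05 FPKM in the other TAM-WT libraries. TAM-WT replicate 1 was the TAM-WT library with the highest of both sums, close to TAM-KO replicate 4. Of 6 T cell genes tested 0 passed with all libraries, 5 rose without TAM-WT replicate 1 and 1 without TAM-WT replicate 2. Of 2 NK cell genes tested 1 rose, and between 0 and 2 did with a library left out, both without TAM-WT replicate 1, while the NK receptor genes Klra8 and Ncr1 had at most 4 counts in every library. Klrb1c, which encodes NK1.1 and is not in the sum, had 10, 3, 6 and 6 counts in TAM-WT and 3, 5 and 2 in TAM-KO replicates 2 to 4, so NK cells are not told apart from T cells here.

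Among other leukocytes, 5 monocyte genes led by F13a1 summed to 471, 426, 656 and 484 FPKM in TAM-WT and to 483, 463, 541 and 422 FPKM in TAM-KO, and of 7 tested 3 rose and 1 fell. F13a1, the 1 that fell, made up most of the sums in TAM-WT, and Ly6c2 and Plac8 were among those that rose. Without F13a1, the 4 other genes summed to 132, 58.6, 123 and 158 FPKM in TAM-WT. In TAM-KO these sums were 300, 363, 393 and 245 FPKM, without overlap. Ccr2 (-0.05) and Vcan (-0.38), without a value in TAM-KO replicate 1, are not in the sums and had negative log2 fold changes that did not pass, so the monocyte genes do not share a direction. The 7 neutrophil genes, led by Csf3r, summed to between 47.2 and 74.2 FPKM in all libraries apart from TAM-KO replicate 1, where they reached 214 FPKM, and Ly6g, which defines the lineage, had at most 3 counts in every library; of 5 tested 1 rose. Mmp8 had the other direction, and without it the 6 other genes summed to between 21.4 and 32.3 FPKM in TAM-WT and to 196, 49.2, 48.8 and 55.6 FPKM in TAM-KO. Conventional dendritic cell genes, 6 of them led by Cadm1, summed to between 45.1 and 65.5 FPKM in TAM-WT and between 69.9 and 91.8 FPKM in TAM-KO libraries. That separation of the sums came from Cadm1, since the other 5 genes summed to between 15.95 and 21.1 FPKM in TAM-WT and between 16.8 and 19.2 FPKM in TAM-KO. Of 8 tested 2 rose, Cadm1 and Xcr1. Xcr1 was low, at 0.06 to 0.34 FPKM in TAM-WT and 0.37 to 0.92 FPKM in TAM-KO (log2 fold change 1.78). The median log2 fold change was 0.02, and Cd209a at -1.01, Ccr7 at -0.36 and Wdfy4 at -0.20 had the other sign. With a library left out, calls ran from 0 to 3 for these genes, from 0 to 3 of 11 for macrophage, from 1 to 4 of 7 for monocyte and from 0 to 2 of 5 for neutrophil genes. Genes of plasmacytoid dendritic cells, led by Tcf4, summed over 5 genes to between 8.38 and 11.1 FPKM over all libraries, and 0 of 5 tested passed. Most of that sum was Tcf4, at 7.11 to 9.98 FPKM. The other summed genes were low, with the highest value at 0.96 FPKM for Siglech, so the sum says little about them. Low sums were found for B cell genes, led by Cd79b, at up to 10.2 FPKM over 5 genes, fibroblast genes, led by Col1a1, at up to 6.19 FPKM over 5 genes in the 7 libraries that hold them, and endothelial genes, led by Egfl7, at up to 11.2 FPKM over 4 genes, with 0 genes called in each. The part of these cells in the results below was not tested.

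Of the 10 genes, 2 were called at an adjusted p of at most 0.05, against 9.81% of all genes tested. Tlr3 was called higher in TAM-KO, where 4.58% of all genes were, and Cd14 was called lower, where 5.24% of all genes were. FPKM values did not overlap between the groups for 4 of the 10 (Cd14, Tlr3, Tlr7 and Tlr8), against 19.4% of all genes. For that share, these 4 and the other genes absent from the table of TAM-KO replicate 1 were judged on 7 libraries. They made up 3016 of all genes, and the other 9396 were judged on 8. Groups overlap less readily with fewer libraries, so the shares are not like for like and nothing is read from their difference. With 1 library left out, the number of called members ran from 0, when the library left out was replicate 3 of TAM-WT or replicate 2 or 3 of TAM-KO, to 6, when it was replicate 2 of TAM-WT. It was 4 without TAM-WT replicate 1 and 1 without TAM-WT replicate 4. Calls over all genes ran from 77, without TAM-KO replicate 2 or 3, to 2755, without TAM-WT replicate 2. DESeq2 called 6 of the 10 (Cd14, Tlr2, Tlr3, Tlr7, Tlr9 and Tlr13) and 2253 of all genes. With quality weights, limma voom called 7, those and Tlr4, and 3625 of all genes. Over all genes, 1218 were called, 568 of them higher and 650 lower in TAM-KO, and 314 had a fold change of at least 2. The share called higher was 46.6%. Over the other fits it ran from 29.9% (without TAM-KO replicate 2) to 69.2% (limma on log2(FPKM + 1)). A call here needs an adjusted p of at most 0.05 in edgeR's quasi-likelihood test, and the log2 fold changes are TAM-KO over TAM-WT on the scale of normalized counts.

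**Figure D1:**
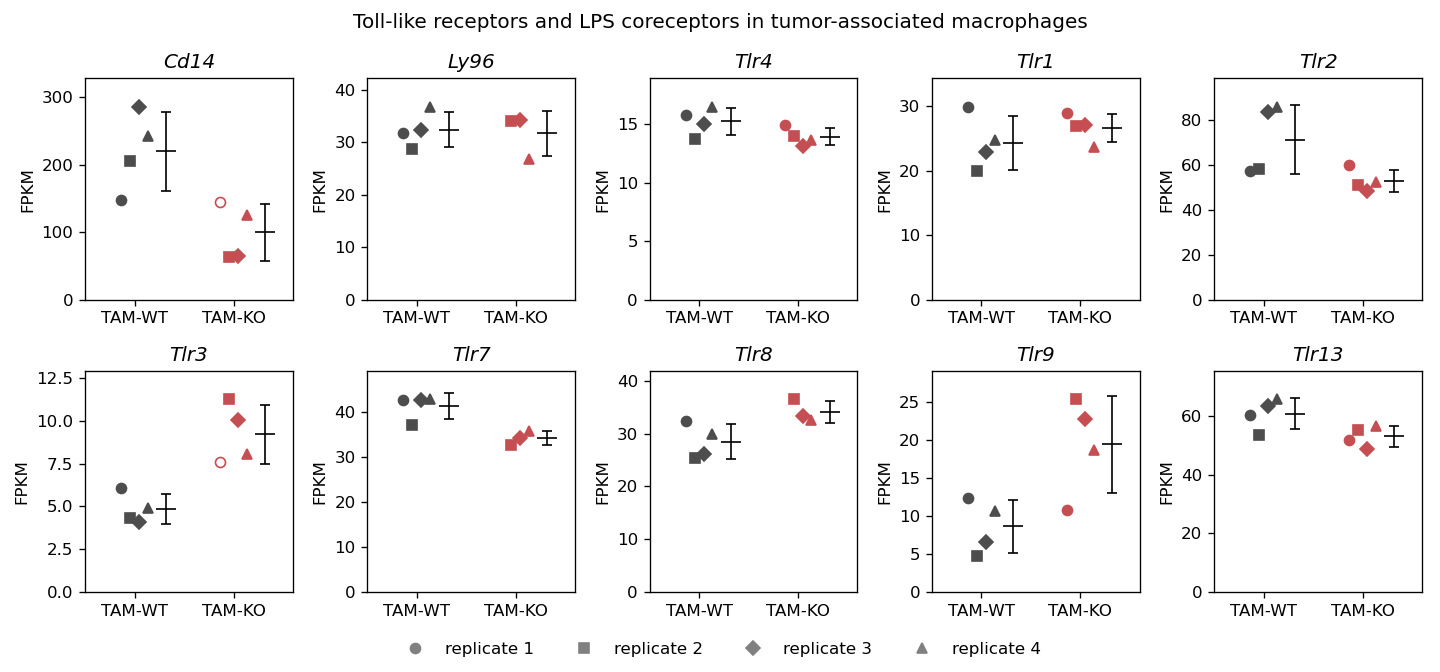
FPKM of the 10 genes in each library, by group on the horizontal axis. Symbols mark the replicate, open symbols are values of TAM-KO replicate 1 from the table of the whole series, and black bars are the mean ± SD of 3 or 4 libraries. Cd14 was lower and Tlr3 higher in each TAM-KO library than in any TAM-WT library, and Tlr9 and Tlr2 overlapped between the groups.

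Cd14 had the highest FPKM of the 10 genes in both groups. This GPI-anchored coreceptor lies upstream of the Tlr4 complex. It was measured at 147, 206, 285 and 243 FPKM in TAM-WT and at 145, 62.7, 65.1 and 125 FPKM in TAM-KO. The highest TAM-KO library, replicate 1, and the lowest TAM-WT library, also replicate 1, were nearly level, and the groups did not overlap. Means were 220 ± 58.5 FPKM for TAM-WT (SD, n = 4) and 99.5 ± 41.9 FPKM for TAM-KO (SD, n = 4). Compared with TAM-WT, Cd14 fell in TAM-KO with a log2 fold change of -1.49 (SE 0.34, 2.81-fold lower; edgeR's quasi-likelihood test on 4 and 3 libraries with Benjamini-Hochberg adjustment, adjusted p = 0.0356). With TAM-KO replicate 1 filled in, the same test gave -1.27 with an adjusted p of 0.0471 (edgeR, Benjamini-Hochberg). The call was lost without replicate 3 (adjusted p = 0.0922) or 4 (0.0754) of TAM-WT and without replicate 2 (0.131) or 3 (0.127) of TAM-KO in edgeR with Benjamini-Hochberg adjustment, with the log2 fold change between -1.93 and -1.28 over all 8 libraries left out in turn. In these bulk samples, fewer cells of a type and less RNA per cell cannot be told apart.

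Tlr4, the signaling receptor of the complex, did not pass. Its level was 15.8, 13.8, 14.98 and 16.4 FPKM in TAM-WT and 14.9, 14.0, 13.2 and 13.6 FPKM in TAM-KO. The groups overlapped through TAM-WT replicate 2. Its log2 fold change was -0.24 (SE 0.08; edgeR's quasi-likelihood test with Benjamini-Hochberg adjustment, adjusted p = 0.0828). It was called without TAM-WT replicate 2 (-0.31, edgeR adjusted p = 0.0141 after Benjamini-Hochberg).

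Ly96, which encodes MD-2, was present at 31.8, 28.8, 32.4 and 36.6 FPKM in TAM-WT and at 34.0, 34.2 and 26.8 FPKM in TAM-KO replicates 2 to 4. The groups overlapped, and TAM-KO replicate 4 was the lowest library. Its log2 fold change of -0.11 (SE 0.14; edgeR's quasi-likelihood test, Benjamini-Hochberg, adjusted p = 0.609) flipped to a value near 0 on the other side when counts were scaled to total reads.

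Ratios of FPKM between pairs of the 10 genes were compared over libraries with 5 ratios tested. Cd14 to Tlr4 was 9.29, 14.9, 19.0 and 14.8 in TAM-WT and 9.72, 4.47, 4.95 and 9.19 in TAM-KO. Only TAM-WT replicate 1 lay inside the range of the TAM-KO libraries. The exact two-sided permutation test gave p = 0.0571 and an adjusted p of 0.143 over the 5 ratios, and 4 against 4 libraries allow no p under 0.0286. Ly96 to Tlr4, with 3 TAM-KO libraries, had a geometric mean of 2.12 in TAM-WT and 2.31 in TAM-KO (exact permutation test, adjusted p = 0.343).

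Tlr2 and Tlr1 form a receptor for triacylated lipoproteins, and Tlr2 with Tlr6 one for diacylated lipoproteins. Tlr2 had 57.5, 58.3, 83.8 and 85.7 FPKM in TAM-WT and 60.1, 51.0, 48.4 and 52.3 FPKM in TAM-KO. TAM-WT replicates 1 and 2 lay near the TAM-KO libraries, and TAM-WT replicates 3 and 4 stood well above them. The groups overlapped through TAM-KO replicate 1. Its log2 fold change was -0.55 (SE 0.17; edgeR's quasi-likelihood test with Benjamini-Hochberg adjustment, adjusted p = 0.0649). The call was made without TAM-WT replicate 1 (-0.66, adjusted p = 0.0397) and without TAM-WT replicate 2 (-0.65, adjusted p = 0.0194) in edgeR with Benjamini-Hochberg adjustment.

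Tlr1 was measured at 29.8, 19.9, 22.9 and 24.7 FPKM in TAM-WT and at 28.9, 27.0, 27.0 and 23.7 FPKM in TAM-KO. The lowest and the highest of the 8 libraries were both TAM-WT. Its log2 fold change was 0.02 (SE 0.11; edgeR's quasi-likelihood test, Benjamini-Hochberg, adjusted p = 0.917), and the direction turned without TAM-WT replicate 2 and without TAM-KO replicate 1. The expected counts of Tlr1 and Tlr6, which are related genes, were not whole numbers. Some of their reads were therefore shared with another transcript, which was not identified, and both values carry that uncertainty. The ratio of Tlr1 to Tlr2 had a geometric mean of 0.343 in TAM-WT and 0.504 in TAM-KO (exact permutation test, adjusted p = 0.143). Tlr6, not among the 10 genes, fell from 7.78, 6.11, 7.12 and 7.56 FPKM in TAM-WT to 5.92, 5.41, 5.48 and 6.12 FPKM in TAM-KO. TAM-KO replicate 4 lay just above TAM-WT replicate 2. The log2 fold change of Tlr6 was -0.46 (SE 0.12; edgeR's quasi-likelihood test, Benjamini-Hochberg, adjusted p = 0.0397), and the call held in 2 of 8 fits with a library left out, those without TAM-WT replicate 2 and without TAM-KO replicate 4, and not with limma on log2(FPKM + 1) or log2(FPKM + 0.1).

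Tlr3, an endosomal receptor for double-stranded RNA that signals through Ticam1, had the lowest FPKM of the 10 genes in both groups. It was measured at 6.06, 4.32, 4.11 and 4.88 FPKM in TAM-WT and at 7.57, 11.2, 10.03 and 8.04 FPKM in TAM-KO. Every TAM-KO library lay above every TAM-WT library, with TAM-WT replicate 1 the highest of its group and TAM-KO replicate 1 the lowest of its own. Means were 4.84 ± 0.874 FPKM for TAM-WT (SD, n = 4) and 9.22 ± 1.72 FPKM for TAM-KO (SD, n = 4). Tlr3 rose with a log2 fold change of 0.90 (SE 0.14, 1.86-fold; edgeR's quasi-likelihood test on 4 and 3 libraries with Benjamini-Hochberg adjustment, adjusted p = 0.0168). With TAM-KO replicate 1 filled in, it was 0.80 with an adjusted p of 0.0229 (edgeR, Benjamini-Hochberg). The call was lost without replicate 3 of TAM-WT (adjusted p = 0.0522) and without replicate 2 (0.0719) or 3 (0.0705) of TAM-KO in edgeR with Benjamini-Hochberg adjustment, and the log2 fold change ran from 0.82 to 0.998 over the 8 fits with a library left out. In TAM-WT replicate 1, the library with the highest Tlr3 of its group, T cell genes and Cadm1 were also highest of that group, and their part in the result was not tested.

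Tlr9, a receptor for unmethylated CpG DNA, varied widely among the libraries of each group. It was measured at 12.4, 4.78, 6.64 and 10.7 FPKM in TAM-WT and at 10.8, 25.4, 22.8 and 18.7 FPKM in TAM-KO. TAM-KO replicate 1 fell inside the TAM-WT range, and the other 3 TAM-KO libraries lay above it. The log2 fold change was 1.06 (SE 0.32; edgeR's quasi-likelihood test with Benjamini-Hochberg adjustment, adjusted p = 0.0603). It was called without TAM-WT replicate 1 (1.26, adjusted p = 0.0488) and without TAM-KO replicate 1 (1.26, adjusted p = 0.0479) in edgeR with Benjamini-Hochberg adjustment. With all libraries it was also called by edgeR's quasi-likelihood test on counts scaled to total reads (adjusted p = 0.0444) and by limma on log2(FPKM + 1) (0.0472) and log2(FPKM + 0.1) (0.0471), each after Benjamini-Hochberg adjustment. The TAM-WT library with the most Tlr9, replicate 1, also had the highest sums of T cell and NK cell genes of its group, and TAM-KO replicate 1, with the least Tlr9 of its group, had the most neutrophil RNA; their part in the result was not tested.

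Tlr7 and Tlr8, neighbours on chromosome X that bind single-stranded RNA, lay on opposite sides of 0. Tlr7 had 42.6, 37.0, 42.6 and 42.7 FPKM in TAM-WT and 32.7, 34.2 and 35.6 FPKM in TAM-KO replicates 2 to 4. Tlr8 had 32.4, 25.4, 26.1 and 29.9 FPKM in TAM-WT and 36.5, 33.3 and 32.5 FPKM in TAM-KO replicates 2 to 4. For each gene the FPKM of the groups did not overlap, Tlr8 by the smallest of margins between TAM-WT replicate 1 and TAM-KO replicate 4. On normalized counts Tlr8 did overlap, with TAM-WT replicate 1 at 247 CPM (counts scaled to library size) and TAM-KO replicate 3 at 242 CPM. The log2 fold changes were -0.37 (SE 0.10) for Tlr7 and 0.15 (SE 0.10) for Tlr8, and neither passed (edgeR's quasi-likelihood test, Benjamini-Hochberg, adjusted p = 0.0507 and 0.337). Without TAM-WT replicate 2, Tlr7 was called (-0.43, edgeR adjusted p = 0.0107 after Benjamini-Hochberg). The ratio of Tlr7 to Tlr8 was 1.31, 1.46, 1.63 and 1.43 in TAM-WT and 0.896, 1.03 and 1.10 in TAM-KO replicates 2 to 4, without overlap. The exact two-sided permutation test gave p = 0.0571, the smallest that 4 against 3 libraries allow, and an adjusted p of 0.143. The counts of Tlr7 were not whole numbers either, so some of its reads were shared with another transcript.

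Tlr13, a mouse receptor for bacterial ribosomal RNA, was among the 3 most abundant members in both groups. It had 60.5, 53.6, 63.6 and 65.7 FPKM in TAM-WT and 51.8, 55.3, 48.8 and 56.6 FPKM in TAM-KO. The groups overlapped through TAM-WT replicate 2. The log2 fold change was -0.31 (SE 0.10; edgeR's quasi-likelihood test with Benjamini-Hochberg adjustment, adjusted p = 0.0773), and it was called without TAM-WT replicate 2 (-0.39, edgeR adjusted p = 0.0162 after Benjamini-Hochberg). The ratio of Tlr13 to Tlr2 had a geometric mean of 0.866 in TAM-WT and 1.005 in TAM-KO (exact permutation test, adjusted p = 0.250).

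The order of the 10 genes by mean FPKM, a scale that allows genes of different length to be set side by side, was Cd14, Tlr2, Tlr13, Tlr7, Ly96, Tlr8, Tlr1, Tlr4, Tlr9 and Tlr3 in TAM-WT. The ranges over libraries overlapped between Tlr2 and Tlr13, between Ly96 and Tlr8, between Tlr8 and Tlr1 and between Tlr9 and Tlr3. Within libraries, Tlr8 was above Tlr1 and Tlr9 above Tlr3 in 4 of 4, and Tlr2 was above Tlr13 and Ly96 above Tlr8 in 3 of 4. In TAM-KO the order was Cd14, Tlr13, Tlr2, Tlr7, Tlr8, Ly96, Tlr1, Tlr9, Tlr4 and Tlr3. There the ranges of Tlr13 and Tlr2 overlapped, as did those of each pair of neighbours from Tlr7 to Tlr4, though Ly96 was above Tlr1 in 3 of 3 libraries and Tlr1 above Tlr9 in 4 of 4, while Cd14, Tlr2 and Tlr4 each stayed above the next gene.

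The remaining Tlr genes were low. Tlr11 and Tlr12, which bind profilin of protozoa, had counts of 15, 3, 3 and 10 and of 65, 7, 9 and 10 in TAM-WT. In TAM-KO they had 17, 32, 29 and 22 and 57, 93, 100 and 48 counts. TAM-WT replicate 1 stood apart from its group in Tlr12 and was the highest of it in Tlr11. Neither passed, with log2 fold changes of 1.59 (SE 0.46) for Tlr11 and 1.63 (SE 0.61) for Tlr12 (edgeR's quasi-likelihood test, Benjamini-Hochberg, adjusted p = 0.0540 and 0.106). Without TAM-WT replicate 1 both were called (2.11 and 2.98, edgeR adjusted p = 0.0295 and 0.00591 after Benjamini-Hochberg). Tlr5, the flagellin receptor, had between 2.64 and 4.43 FPKM in the 8 libraries (log2 fold change 0.12, edgeR's quasi-likelihood test, Benjamini-Hochberg, adjusted p = 0.686). Together with Cd180, Ly86 and Lbp these genes made up a list of 7 relatives, of which 1 fell (Tlr6) and the median log2 fold change was 0.12. Cd180 and Ly86, the most abundant of them, form a complex related to that of Tlr4 and MD-2.

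**Figure D2:**
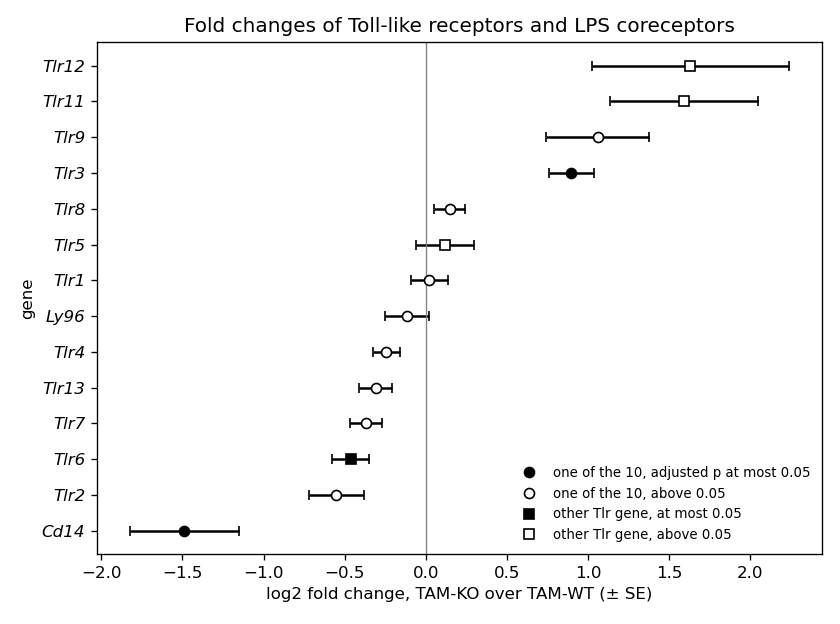
Log2 fold change of TAM-KO over TAM-WT with SE for the 10 genes (circles) and the other Tlr genes (squares), where filled symbols passed an adjusted p of 0.05. Cd14 at -1.49 and Tlr12 at 1.63 mark the ends, and Cd14, Tlr6 and Tlr3 are filled.

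Genes that act with the receptors were set beside the 9.81% of all genes that edgeR called. Over all genes, 30.7% had an unadjusted p under 0.05. DESeq2 called 2253 of all genes, limma voom 3625 and limma on log2(FPKM + 1) 1324, against 1218 for edgeR. Of 11 chaperones and transport genes tested, including the abundant proteases Ctsb, Lgmn and Ctss that cleave endosomal receptors, 0 passed edgeR's test, 2 had an unadjusted p under 0.05, and DESeq2 called 2, limma voom 3. Of 18 adaptors and proximal kinases 0 passed edgeR's test, 6 had an unadjusted p under 0.05, and DESeq2 called 1, limma voom 6 and limma on log2(FPKM + 1) 2. Of 21 downstream kinases and transcription factors 0 passed edgeR's test, 4 had an unadjusted p under 0.05, and DESeq2 called 4, limma voom 5 and limma on log2(FPKM + 1) 1. Median log2 fold changes were -0.04, -0.10 and -0.05, beside 0.00 for all 12412 genes. With lists of this size, nothing is read from counts of 0. Fos was the most abundant of the downstream genes and was at 392, 664, 710 and 619 FPKM in TAM-WT and 452, 318, 322 and 415 FPKM in TAM-KO, with overlap (edgeR's quasi-likelihood test, Benjamini-Hochberg, adjusted p = 0.0521).

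Inhibitors of the pathway and transcripts that LPS induces are given next, and their shares were not tested against the 9.81% of all genes. Of 17 inhibitors 2 rose and 2 fell (23.5%), with a median log2 fold change of -0.53. Socs1, which blocks cytokine and Toll-like receptor signals, rose with a log2 fold change of 1.45, and Sigirr, an inhibitory receptor, with 1.03 (edgeR's quasi-likelihood test, Benjamini-Hochberg, adjusted p = 0.0393 and 0.0253). Atf3, a repressor induced by Toll-like receptors, fell with -1.42 and Tollip with -0.53 (edgeR, Benjamini-Hochberg, adjusted p = 0.0465 and 0.0405). The tests of Socs1 and Atf3 used 3 TAM-KO libraries. With TAM-KO replicate 1 from the table of the whole series, the FPKM of both genes overlapped between the groups. Of 21 transcripts induced by LPS, 1 rose and 5 fell (28.6%), with a median log2 fold change of -1.23. Il1a fell by 3.05, Marco by 2.73 and Il12b by 1.77 on the log2 scale (edgeR, Benjamini-Hochberg, adjusted p = 0.0362, 0.0478 and 0.0329), and Ccl3 and Ccl4 were among the lower ones. The tests of Il1a, Marco and Il12b used 3 TAM-KO libraries. TAM-KO replicate 1, from the table of the whole series, lay above the lowest TAM-WT library for Il1a (7.75 against 5.85 FPKM) and Marco (11.25 against 9.89 FPKM). Il12b was low, at 57, 23, 39 and 42 counts in TAM-WT and 13, 8 and 16 in TAM-KO replicates 2 to 4. Cxcl10, an interferon-induced chemokine, was the 1 that rose. Of the 83 tested genes of the KEGG Toll-like receptor signaling pathway, which holds 9 of the 10 genes and overlaps the other lists, 3 rose and 10 fell (15.7%), with a median of -0.08. TAM-WT replicate 1 lay inside the FPKM range of TAM-KO for 14 of the 21 transcripts and 10 of the 17 inhibitors, against 2 to 5 and 1 to 4 for the other TAM-WT libraries. Tnf, for example, was at 57.8, 207, 244 and 189 FPKM in TAM-WT and at 129, 39.2, 54.7 and 75.7 FPKM in TAM-KO. Without TAM-WT replicate 1, 14 transcripts, 9 inhibitors and 19 KEGG genes were called, and without TAM-WT replicate 2 these were 10, 8 and 31. Over all genes, those fits called 1160 and 2755, against 1218 with all libraries. With replicate 3 of TAM-WT or replicate 2 or 3 of TAM-KO left out, 0 genes were called in any of these lists by edgeR. Those 3 fits called 151, 77 and 77 of all genes.

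Profiles most like those of the called members were sought among 10935 genes over the 7 libraries that hold every gene, by the root mean square difference of centred log2 CPM. For Cd14 these were Cdk18 (0.0880), Cd9 (0.166) and Fabp4 (0.171), against a median of 0.883 over those genes. For Tlr3 they were Cyria (0.0859), Cadm1 (0.0886) and Tcf7l2 (0.110), against a median of 0.502. Cadm1 is also among the dendritic cell markers above.

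RefSeq promoter sequences (GRCm38.p6) were searched for 6 of the 10 genes, with 7 starts. The 250 bases before each start were searched on both strands for GAAANNGAA, a core bound by interferon regulatory factors, GAGGAAG, bound by PU.1, and GGGANNNCC, a pattern of 9 letters near the NF-κB site (a match is a description, not a binding site). The searched windows held GAAANNGAA in 7.13%, GAGGAAG in 10.6% and GGGANNNCC in 15.8% of the 32851 promoters. Among the 7 promoters of the members, GAAANNGAA was found only in Tlr8, GAGGAAG in Tlr1, Tlr9 and Tlr13, and GGGANNNCC only in Tlr2. The NF-κB consensus of 10 letters was added after the windows had been read, and it was in 7.25% of all promoters and in those of Tlr2 and Tlr3. Tlr3, which rose, and Tlr9, whose 2.09-fold difference did not pass, are shown 5′ to 3′ with matches in capitals.
Tlr3 (chr8:45410381-45410630, minus strand): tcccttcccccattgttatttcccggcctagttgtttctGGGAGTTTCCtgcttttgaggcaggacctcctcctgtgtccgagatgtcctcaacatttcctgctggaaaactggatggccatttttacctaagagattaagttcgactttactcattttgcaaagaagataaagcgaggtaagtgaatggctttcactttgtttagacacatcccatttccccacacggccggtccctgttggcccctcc
Tlr9 (chr9:106222348-106222597, plus strand): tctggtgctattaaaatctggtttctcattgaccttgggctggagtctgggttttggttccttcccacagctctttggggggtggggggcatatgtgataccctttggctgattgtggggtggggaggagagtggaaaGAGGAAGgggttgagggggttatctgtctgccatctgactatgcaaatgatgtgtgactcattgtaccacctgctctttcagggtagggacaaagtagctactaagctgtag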

How the data were processed

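Expected counts per gene were estimated by the authors with RSEM from aligned reads and deposited without normalization. FPKM values were computed by the authors with RSEM relative to gene length and mapped reads, and were deposited beside the counts. Submitters' notes name RSEM 1.2.12, Bowtie2 2.2.5 and HISAT2 2.0.4. Per-sample TPM columns, 8 in the table of the whole series, were not used, nor were the authors' fold changes, p-values and q-values. A joined line and 629 displaced values of TAM-KO replicate 1 were left out. Before testing, counts were rounded to whole numbers. They were compared by edgeR 4.0.16 under R 4.3.3 (TMM, filterByExpr, glmQLFit, glmQLFTest) over 9396 genes on 8 libraries and 3016 on 7, with Benjamini-Hochberg adjustment over both sets together. Ratios were compared with scipy 1.17.1. The test was checked on simulated counts. No library repeated another of its group, since each pair had a chi-square of at least 6.60 per degree of freedom. Groups follow the genotype in the labels, and the study gives 4 mice per group. Alternatives used DESeq2 1.42.0, limma 3.58.1, other scalings, filters and pseudocounts, stricter thresholds, a replicate block and each library left out. Wherever limma voom is named, quality weights were used with it. Members and lists were chosen with earlier results of these data known, and motifs after the results were seen. The text names all members, every other Tlr gene, up to 3 abundant and 3 called genes per list, and the most abundant marker genes. It also names the 3 genes most like each called member. Tollip, Ccl3, Ccl4, Cxcl10 and Xcr1 were named after their values were seen.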

Additional observations from a re-analysis of the deposited data

Results flagged for a closer look

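In groups of 4 libraries, a value was set aside for a closer look when its gap to the nearest other library was large beside the range of its group (Dixon's criterion at 95%). Of 33 such groups, over the members, the other Tlr genes and the ratios, 2 stood out, and chance alone gives about 1 in 20. Tlr7 was at 37.0 FPKM in TAM-WT replicate 2, below the nearest TAM-WT library at 42.6 FPKM, and Tlr7 was called when this library was left out. Tlr12 was at 1.31 FPKM in TAM-WT replicate 1, above the nearest at 0.20 FPKM. A set of 5 T cell genes summed to 11.97 FPKM in that library and to at most 0.86 FPKM in the other 3 of its group, and their part in the value of Tlr12 was not tested.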

How the results depend on the processing

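The 1218 genes called became 2253 with DESeq2 and 3625 with limma voom, which was run with quality weights. They became 36 at an adjusted p of at most 0.01 and 314 at a fold change of at least 2. With 1 library left out, calls ran from 77 to 2755. The 2 members became 6, 7, 0 and 1 in the same order, and ran from 0 to 6 with 1 library left out. Without TAM-WT replicate 1 and TAM-KO replicate 1 together, a fit chosen after seeing the data, 787 genes and 3 members (Cd14, Tlr3, Tlr9) were called. Other relatives of the receptors, with 1 call, had 2 with scaling to total reads, 4 with DESeq2, 5 with limma voom, 2 on log2(FPKM + 0.1), 2 without the pair of first replicates, 0 at 0.01 and 0 at 2-fold, and from 0 to 2 with a library left out. Chaperones, with 0, had 2 with DESeq2 and 3 with limma voom, and from 0 to 2 with a library left out. Adaptors, with 0, had 1 with scaling to total reads, 1 with DESeq2, 6 with limma voom, 2 on log2(FPKM + 1), 2 on log2(FPKM + 0.1) and 1 with the replicate block, and from 0 to 5 with a library left out. Downstream genes, with 0, had 2 with scaling to total reads, 4 with DESeq2, 5 with limma voom, 1 on log2(FPKM + 1), 1 on log2(FPKM + 0.1), 2 without a filter, 2 with the replicate block and 2 without the pair, and from 0 to 3 with a library left out. Inhibitors, with 4, had 12 with DESeq2, 12 with limma voom, 7 without the pair and 0 at 0.01, and from 0 to 9 with a library left out. Transcripts induced by LPS, with 6, had 12 with limma voom, 3 with the replicate block, 13 without the pair and 0 at 0.01, and from 0 to 14 with a library left out. KEGG genes, with 13, had 24 with DESeq2, 40 with limma voom, 0 at 0.01 and 7 at 2-fold, and from 0 to 31 with a library left out. The cause of these differences was not tested. Of the members' log2 fold changes under the alternatives, 159 kept their direction and side of the threshold, 7 no longer passed, 20 passed in addition and 4 turned, as did 2 of Tlr5. Ly96 turned to 0.0015 with scaling to total reads, Tlr1 to -0.0302 with limma voom and, with a library left out, ran from -0.0817 to 0.115 (-0.0149 without TAM-KO replicate 1), and Tlr5 to -0.0119 with limma voom and ran from -0.0241 to 0.253. Ratios between members kept their direction under every alternative run; with a library left out the exact test allows no p under 0.0571, so nothing is read from its not passing. Scaling to total reads made 64.4% of calls higher in TAM-KO, against 46.6%. This share was 69.2% with limma on log2(FPKM + 1) and 68.4% on log2(FPKM + 0.1), which put the median of all genes at 0.11. With the replicate number as a block, 1080 genes and 2 members were called. Same-numbered libraries had correlations of -0.325, 0.020, -0.234 and 0.261 in their deviations from the group means. The libraries did not all correlate best with their own number. These correlations cannot decide whether same-numbered libraries were handled together, and the main test took the numbers as no pairing. Limits are set by 4 libraries a group, 3 for the 5 members tested without TAM-KO replicate 1, and by low counts of Tlr11 and Tlr12.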
